A study of Homo sapiens with 4 samples.

Results

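The genes described here encode the nuclear subunits of the 5 complexes of the mitochondrial respiratory chain, compared between 2 lung cancer cell lines. Members were taken from the platform annotation by symbol: the NDUFA, NDUFB, NDUFC, NDUFS, NDUFV, SDH, UQCR, COX4 to COX8 and ATP5 genes, without assembly factors, pseudogenes and the inhibitor gene ATP5IF1. This gave 80 genes of the 18239 genes with a probe set of 1 symbol: 36 of complex I, 3 of complex II, 7 of complex III, 16 of complex IV and 18 of complex V. Some further subunit genes, and the subunits that mitochondrial DNA encodes, are not analysed here.

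Complexes I and II pass electrons from NADH and succinate to ubiquinone, complex III passes them on to cytochrome c, and complex IV, cytochrome c oxidase, passes them to oxygen. Complexes I, III and IV pump protons while doing so, and complex V, the ATP synthase, uses the proton gradient to make ATP. Most subunits are encoded in the nucleus, and in cancer cells the chain supplies both ATP and the electron acceptor that aspartate synthesis needs.

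The study compared MTAC-P, in the labels a resistant line raised under a mild tyrosine kinase inhibitor regime, with PC9, an EGFR-mutant line from human lung adenocarcinoma. Total RNA of cells grown in DMEM with serum was measured on 4 one-colour arrays, 2 of MTAC-P and 2 of PC9. For MTAC-P the labels do not give the inhibitor, its dose, the line of origin, whether it is 1 clone or whether drug was present at collection. Duplicate arrays are named, but separate cultures are not, so the p-values measure only the spread between these arrays, which may be technical. Values are log2 expression values, 1 per probe set and array. Each gene was represented by its brightest probe set, that is, the one with the highest mean over the 4 arrays. Genes with a mean under 4.14, here the dim value, were not tested, that value being the 25th percentile of the probe set means. A level is not comparable between genes, because probe sets differ in brightness for equal RNA.

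Both lines carried epithelial markers at high levels. The keratin KRT18 had 14.41 and 14.42 in MTAC-P, against 14.32 and 14.27 in PC9, and EPCAM had 11.92 and 11.51 in MTAC-P, against 12.20 and 12.21 in PC9. The lung transcription factor NKX2-1 was close to the dim value in both lines, at 5.22 and 4.92 in MTAC-P and 5.17 and 4.72 in PC9. Every measured fibroblast, leukocyte and endothelial marker had line means of 5.49 or less. Among muscle markers MB, which encodes myoglobin, was bright, at 8.70 and 9.05 in MTAC-P and 8.81 and 9.13 in PC9, and the other 4 lay near the dim value. In such bulk RNA a smaller number of expressing cells and less RNA per cell cannot be told apart. Pearson's r over the 14970 tested genes was 0.990 between the MTAC-P arrays and 0.992 between the PC9 arrays, against 0.980 to 0.990 between lines.

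The subunit genes differed little between the lines, and none passed the test. Of the 80 genes 76 were above the dim value and were tested, and their log2 differences of MTAC-P minus PC9 ran from -0.57 for NDUFS4 to 0.66 for ATP5MGL. Means were higher in MTAC-P for 46 subunits and lower for 30, or 60.5% higher against 53.8% over all tested genes. The median subunit difference was 0.092, and that of all 14970 tested genes was 0.031. No subunit passed limma's adjusted p threshold of 0.05 over all tested genes, which 3 genes or 0.02% passed. The lowest adjusted p of a subunit was 0.137. A typical subunit had a 95% interval of 0.39 on each side of its difference. The interval uses limma's moderated error, which borrows from the spread of all tested genes and is not that of a subunit's own duplicates. In this fit, changes of that size or smaller could not be told from 0 for a typical subunit.

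At an unadjusted limma p under 0.05, 4 subunits were higher in MTAC-P, where 7.76% of all tested genes were, and 6 were lower, where 11.1% were. Together these were 13.2% of the 76 subunits, against 18.9% of all tested genes. Both MTAC-P arrays lay above both PC9 arrays for 33 subunits, or 43.4%, where 28.3% of all tested genes did so. For 16 subunits, or 21.1%, both MTAC-P arrays lay below both PC9 arrays, where 24.9% of all tested genes did so. Together the arrays were apart for 64.5% of the subunits and 53.2% of all tested genes. The subunits were far brighter, with array medians of 11.91 to 11.98 against 6.83 to 6.91 for all tested genes. These shares were not compared at equal brightness. No subunit differed 2-fold or more, as 2.02% of all tested genes did. An exact permutation test on 2 arrays against 2 cannot give a 2-sided p below 0.333. The gap between the duplicates of at least 1 line exceeded the line difference for 40 of the 76 subunits, or 52.6%, and for 61.5% of all tested genes.

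By complex, the medians were highest for the small sets of complexes II and III. The median log2 difference was 0.11 over 36 tested subunits of complex I, 0.20 over 3 of complex II, 0.21 over 7 of complex III, 0.018 over 12 of complex IV and 0.021 over 18 of complex V. The complexes were not tested against each other. The higher median of the subunits was uneven over arrays. Set against each gene's mean over the 4 arrays, the median subunit lay at 0.015 and 0.076 on the MTAC-P arrays, and at 0.0077 and -0.073 on the PC9 arrays. The replicate 1 arrays of the lines were thus close together, and most of the separation came from replicate 2. The median of all subunits was 0.022 without PC9 replicate 2 and 0.029 without MTAC-P replicate 2, against 0.128 without PC9 replicate 1. In the same order, the median of all tested genes was 0.031, 0.0048 and 0.023. Without PC9 replicate 2 the subunit median was thus not above that of all tested genes. That of complex I was 0.028 without PC9 replicate 2, and that of complex IV was -0.0048 without it. Without PC9 replicate 2 the median was 0.12 for complex II, 0.090 for complex III and 0.0021 for complex V. Without MTAC-P replicate 2 it was 0.075 for complex I, 0.12 for complex II, -0.024 for complex IV and -0.0027 for complex V. That of complex III did not fall without MTAC-P replicate 2, at 0.21.

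**Figure D1:**
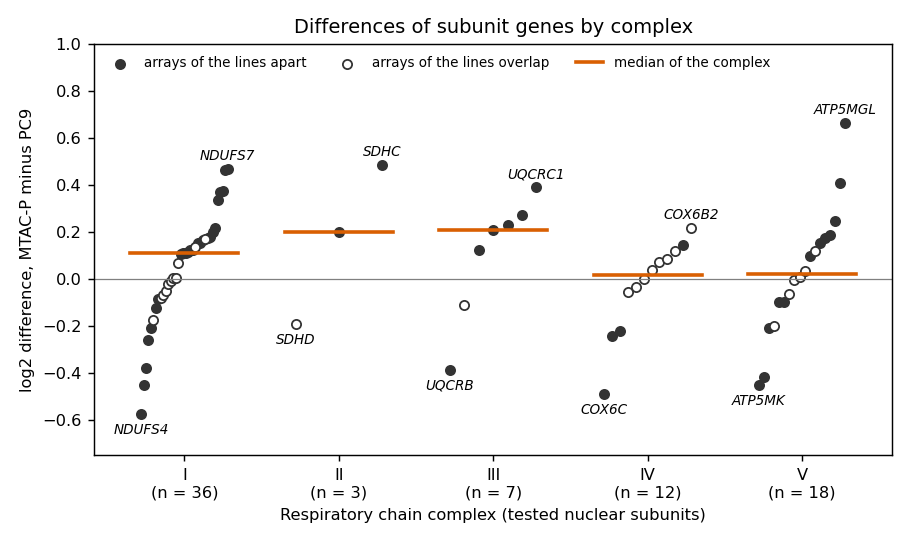
Log2 difference of MTAC-P minus PC9 (vertical axis) for each tested subunit gene, grouped by complex (horizontal axis). Filled points are genes whose MTAC-P arrays both lie above or both below the PC9 arrays, open points are genes whose arrays overlap, and bars are medians. The points of complexes IV and V lie on both sides of 0, with medians of 0.018 and 0.021.

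**Figure D2:**
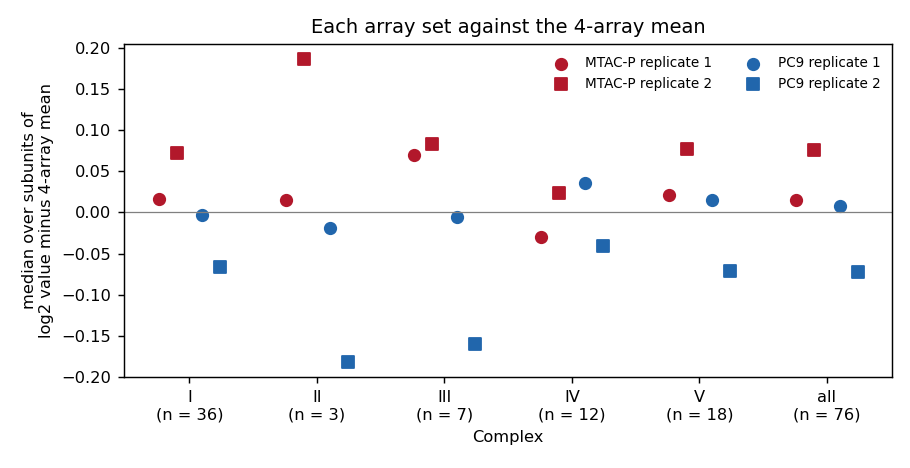
Median over the tested subunits of each array's log2 value minus the gene's 4-array mean, for complexes I to V and for all 76 subunits. Red points are MTAC-P arrays and blue points PC9 arrays, circles are replicate 1 and squares replicate 2. The replicate 2 arrays lie farther apart than the replicate 1 arrays in complexes I, II, III and V.

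Promoters of respiratory genes are known for binding sites of NRF1, of the ETS factor GABP and of YY1. Their short motifs were therefore searched on both strands, from 250 bases before to 50 bases after each gene's listed start (RefSeq, GRCh38.p14). For ATP5PF and ATP5MC2 the listed start lay inside the span of the gene. The promoter table held 62 of the 76 tested subunits. The NRF1 core CGCNTGCG occurred in 22 of the 62 promoters, or 35.5%, against 14.3% of 15843 promoters of protein-coding genes. The ETS core CCGGAAG occurred in 19, or 30.6%, against 14.2%, and the YY1 element AAGATGGCG in 7, or 11.3%, against 2.74%. The TATA box TATAAA was found in 9.68% against 9.63%. Copies of the NRF1 core could overlap each other. A match is a description of the letters only.

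The YY1 elements are shown because over all 15843 promoters they are the rarest of these motifs, though among the subunits the TATA box was rarer, and because they sit on genes that differ in opposite directions. In each the element, in capitals, reads along the strand of the gene, and in every one but ATP5PF it begins 10 to 25 bases after the first base of the gene. In ATP5PF it lies before the listed start but inside the span of the gene.
NDUFS7, chr19:1383914-1383942, plus strand: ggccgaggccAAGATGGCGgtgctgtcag
NDUFA9, chr12:4649114-4649142, plus strand: attgtgggaaAAGATGGCGgctgccgcac
NDUFA7, chr19:8321343-8321371, minus strand: tcgcggacggAAGATGGCGtccgccaccc
NDUFA6, chr22:42090729-42090757, minus strand: atgctttggcAAGATGGCGgggagcggcg
NDUFS4, chr5:53560650-53560678, plus strand: tgcctgcagcAAGATGGCGgcggtgtcaa
UQCRC1, chr3:48609605-48609633, minus strand: ctgcagctggAAGATGGCGgcgtccgtgg
ATP5PF, chr21:25735093-25735121, minus strand: aggcgaagaaAAGATGGCGgaggctgtgc
The log2 differences of these 7 genes were 0.47 for NDUFS7, 0.39 for UQCRC1, 0.22 for NDUFA9, 0.13 for NDUFA7, 0.034 for ATP5PF, -0.12 for NDUFA6 and -0.57 for NDUFS4. NDUFS7 and NDUFS4 had the highest and the lowest difference of complex I, but NDUFA10, without the element, reached 0.46. Since the element was shown partly for these opposite directions, they are no result about it. Tested subunits with the YY1 element had a median log2 difference of 0.13 and those without it 0.068.

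SDHA, the flavoprotein of complex II, has the NRF1 core 4 times upstream of its start, each copy in the reverse orientation (capitals) and in a similar surrounding, and is shown for that repeat.
Copy 1, chr5:218145-218172, plus strand: gtccgctttgCGCAGGCGcggcgccccc
Copy 2, chr5:218194-218221, plus strand: tggcatggtgCGCAGGCGcgatgtcccc
Copy 3, chr5:218243-218270, plus strand: cggcgtggtgCGCAGGCGcggtatcccc
Copy 4, chr5:218292-218319, plus strand: cggtgtggtgCGCAGGCGcagtctgcgc
Tested subunits with the NRF1 core had a median log2 difference of -0.061 and those without it 0.11. With and without the ETS core the medians were 0.086 and 0.038. Across the 62 subunits the log2 difference had a Pearson's r of 0.31 and a Spearman's rho of 0.23 with the promoter's GC content, against 0.053 and 0.051 over 11847 tested genes. These points share the same 4 arrays, and the values are given as a description only.

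Complex I is built around core subunits, some of which hold its flavin and iron-sulfur clusters, with accessory subunits around them. Of the 6 tested nuclear core subunits 5 had higher means in MTAC-P, all 5 with the arrays apart, and the median was 0.15. Over all tested genes 53.8% had higher means and 28.3% had higher arrays apart. NDUFS7, which belongs to the arm that reduces ubiquinone, had 11.05 and 11.37 in MTAC-P, against 10.86 and 10.62 in PC9. The arrays did not overlap, and the log2 difference was 0.47 (SE 0.19, limma adjusted p = 0.252). Its 4 probe sets above the dim value lay between 0.37 and 0.52, and leaving out MTAC-P replicate 2 gave 0.31 on the brightest. NDUFV1, which binds the flavin that accepts electrons from NADH, had 11.09 and 11.16 in MTAC-P, against 10.87 and 10.63 in PC9. The log2 difference of NDUFV1 was 0.37 (SE 0.17, limma adjusted p = 0.289). NDUFS1, the large iron-sulfur subunit, differed by 0.17, with 5 probe sets from -0.048 to 0.35, and by 0.060 without MTAC-P replicate 2. NDUFS3 and NDUFS8 differed by 0.12 and 0.11, and NDUFV2 by -0.082 with overlapping arrays.

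The 30 accessory subunits of complex I had a median of 0.088, with 18 higher and 12 lower in MTAC-P. NDUFS4, an accessory subunit of the NADH-oxidising arm known from Leigh syndrome, had 10.84 and 10.25 in MTAC-P, against 11.11 and 11.12 in PC9. Both MTAC-P arrays were lower, and they lay far from each other, while the PC9 arrays nearly coincided. The log2 difference of NDUFS4 was -0.57 (SE 0.22, limma adjusted p = 0.243). Leaving out the second MTAC-P array gave -0.28, and leaving out the first gave -0.87. NDUFB3, a subunit of the membrane arm, had 12.45 and 12.25 in MTAC-P, against 12.77 and 12.84 in PC9. Its arrays were apart, its log2 difference was -0.45 (SE 0.16, limma adjusted p = 0.217), and its 3 probe sets lay between -0.50 and -0.42. NDUFA5 had 8.25 and 8.16 in MTAC-P, against 8.77 and 8.40 in PC9, with a log2 difference of -0.38 (SE 0.18) that was -0.19 without PC9 replicate 1. NDUFS5 differed by -0.26 and NDUFA12 by -0.21, with both MTAC-P arrays lower, and NDUFA12 by -0.088 without MTAC-P replicate 2.

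On the higher side, NDUFA10 had 9.04 and 8.93 in MTAC-P, against 8.83 and 8.21 in PC9. The difference of 0.46 (SE 0.23) rested largely on the low PC9 replicate 2 and was 0.15 without it. NDUFV3, an accessory subunit next to the flavin site, had 10.36 and 10.60 in MTAC-P, against 10.13 and 10.09 in PC9, a log2 difference of 0.37. NDUFA11, a membrane arm subunit, had 12.23 and 12.40 in MTAC-P, against 12.01 and 11.95 in PC9, a log2 difference of 0.34. Several accessory genes hardly differed at all in their means. NDUFA1 had 13.33 and 13.38 in MTAC-P, against 13.34 and 13.37 in PC9 (95% interval of the log2 difference -0.36 to 0.37), and NDUFB1 and NDUFA8 differed by 0.0022 and -0.0080. NDUFA13 was seen only near the dim value, at 4.70 and 4.31 in MTAC-P and 4.51 and 4.22 in PC9, so its difference says little.

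**Figure D3:**
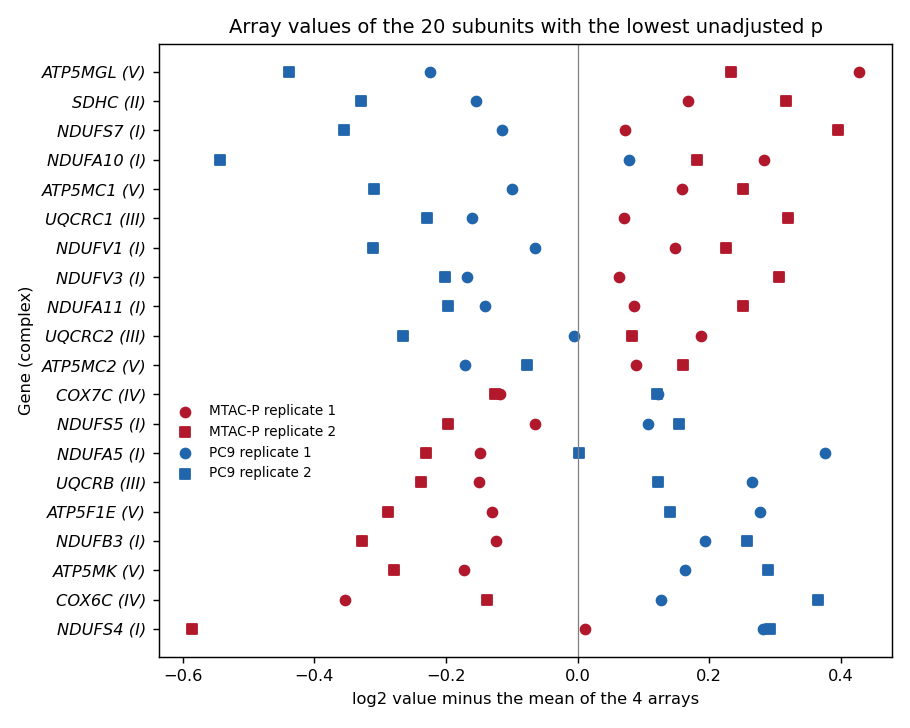
Log2 value minus the gene's 4-array mean (horizontal axis) on each array, for the 20 subunit genes with the lowest unadjusted p, with the complex in brackets. Red is MTAC-P, blue is PC9, circles are replicate 1 and squares replicate 2. The MTAC-P arrays of NDUFS4 and the PC9 arrays of NDUFA10 lie far apart from each other, while the arrays of COX7C nearly coincide within each line.

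Complex II, succinate dehydrogenase, also works in the citric acid cycle and is anchored in the membrane by SDHC and SDHD. SDHC had 11.69 and 11.84 in MTAC-P, against 11.37 and 11.20 in PC9. The MTAC-P arrays lay above the PC9 arrays on each of its 5 probe sets, which differed by 0.48 to 0.80. The brightest gave a log2 difference of 0.48 (95% interval 0.091 to 0.88, limma adjusted p = 0.199), a 1.40-fold higher level in MTAC-P. SDHD, the other anchor, had 9.78 and 9.70 in MTAC-P, against 10.19 and 9.68 in PC9, with overlapping arrays. Its 5 probe sets differed by -0.21 to -0.017. The difference of -0.19 on the brightest turned to 0.066 without PC9 replicate 1. SDHA, the subunit that oxidises succinate, had 11.20 and 11.37 in MTAC-P, against 11.17 and 11.01 in PC9, a log2 difference of 0.20 (SE 0.16) that was 0.12 without MTAC-P replicate 2 or PC9 replicate 2. The opposite signs of SDHC and SDHD were not tested against each other.

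In complex III, both core proteins had higher values in MTAC-P. UQCRC1 had 11.81 and 12.06 in MTAC-P, against 11.58 and 11.51 in PC9, a log2 difference of 0.39 (SE 0.17, limma adjusted p = 0.276). All 3 probe sets of UQCRC1 were higher in MTAC-P, by 0.39 to 0.56. UQCRC2 had 12.26 and 12.15 in MTAC-P, against 12.06 and 11.80 in PC9, a log2 difference of 0.27 (SE 0.17) that was 0.14 without PC9 replicate 2. Among the small subunits the direction was mixed. UQCRB, a ubiquinone-binding subunit, had 10.07 and 9.98 in MTAC-P, against 10.48 and 10.34 in PC9. Its log2 difference was -0.39 (SE 0.16, limma adjusted p = 0.257), with 4 probe sets from -0.77 to 0.099, of which all but the brightest lay near the dim value. The hinge protein gene UQCRH differed by 0.21 and UQCRQ by 0.12. UQCRHL, a near copy of UQCRH, differed by 0.23, or 0.083 without PC9 replicate 2, and probes of these genes may detect each other's RNA.

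UQCR11 gave the largest disagreement between probe sets. Its brightest probe set had 12.14 and 12.47 in MTAC-P, against 12.41 and 12.43 in PC9, a log2 difference of -0.11. The other had 7.96 and 8.32 in MTAC-P, against 7.35 and 6.95 in PC9, a log2 difference of 0.99. ATP5MG, a small membrane subunit of complex V, showed the reverse, with 0.12 on its brightest probe set and -0.87 and -0.92 on the other 2. Of the 42 subunits with several probe sets above the dim value, 12 had at least 1 of the opposite sign to the brightest. Of the 80 brightest probe sets, 38 carry the suffix s or x, which in the naming of such arrays marks probes that can match more than 1 transcript.

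**Figure D4:**
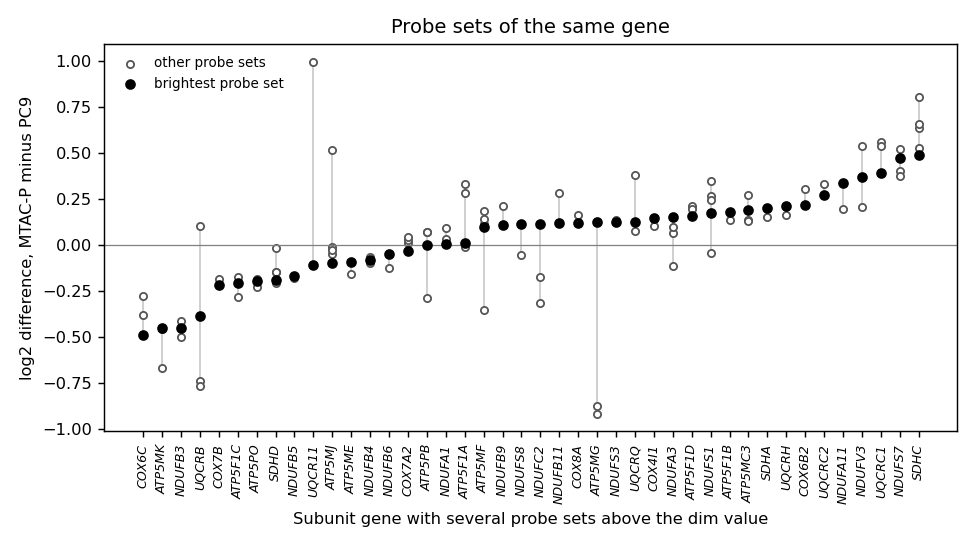
Log2 difference of MTAC-P minus PC9 for every probe set above the dim value, for the 42 subunit genes with several, ordered by the brightest probe set (filled). Open points are the other probe sets. UQCR11 and ATP5MG have the widest ranges, and the 5 probe sets of SDHC all lie between 0.48 and 0.80.

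Complex IV was evenly split, with 6 tested subunits higher and 6 lower in MTAC-P. COX6C, a small membrane subunit, had 11.65 and 11.87 in MTAC-P, against 12.13 and 12.37 in PC9. The arrays were apart and the log2 difference was -0.49 (SE 0.17, limma adjusted p = 0.216). Its other 2 probe sets also had negative differences, of -0.39 and, near the dim value, -0.28. COX7C had 13.62 and 13.61 in MTAC-P, against 13.86 and 13.85 in PC9. Its duplicates nearly coincided in both lines, and the log2 difference was -0.24 (SE 0.15). COX7B had 13.20 and 12.87 in MTAC-P, against 13.25 and 13.27 in PC9, a log2 difference of -0.22 that was -0.057 without MTAC-P replicate 2.

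COX4I1, which encodes the regulatory subunit 4 found in most tissues, was the only tested complex IV gene with both MTAC-P arrays above both PC9 arrays. Such genes were thus 8.33% of the tested complex IV genes, against 28.3% of all tested genes. Both MTAC-P arrays lay below both PC9 arrays for 25% and 24.9%. COX4I1 had 12.22 and 12.45 in MTAC-P, against 12.18 and 12.20 in PC9. Its log2 difference was 0.14 (95% interval -0.25 to 0.54), and 0.027 without MTAC-P replicate 2. The subunits COX5A, COX5B, COX6A1, COX6B1, COX7A2 and COX8A had overlapping arrays and differences from -0.056 for COX6A1 to 0.12 for COX8A. Of the tissue-restricted isoforms, COX4I2, the lung and hypoxia isoform of subunit 4, had 3.99 and 3.98 in MTAC-P, against 4.06 and 4.21 in PC9, under the dim value on average. COX6A2, the heart and muscle isoform, was also under it, as were COX7B2 and COX8C, known from testis. COX7A1, another muscle isoform, had 4.45 and 4.43 in MTAC-P, against 4.38 and 4.51 in PC9. COX6B2, a testis isoform, had 4.87 and 5.49 in MTAC-P, against 4.96 and 4.98 in PC9, with overlapping arrays.

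Complex V consists of the catalytic F1 head, a rotating ring of c subunits, a peripheral stalk and small membrane subunits. The 3 genes ATP5MC1, ATP5MC2 and ATP5MC3, which encode the same mature c subunit with different import sequences, each had both MTAC-P arrays above both PC9 arrays, as 28.3% of all tested genes did. ATP5MC1 had 11.58 and 11.67 in MTAC-P, against 11.32 and 11.11 in PC9, a log2 difference of 0.41 (SE 0.16, limma adjusted p = 0.251). ATP5MC2 had 12.20 and 12.27 in MTAC-P, against 11.94 and 12.04 in PC9, a log2 difference of 0.25 (SE 0.15). ATP5MC3 had 13.74 and 13.82 in MTAC-P, against 13.66 and 13.52 in PC9, a log2 difference of 0.19 (SE 0.16) that was 0.12 without PC9 replicate 2. Their differences had the same sign in every array left out in turn. That outcome was fixed in advance, since both MTAC-P arrays lay above both PC9 arrays for each of these genes.

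The F1 head was mixed, with 3 subunits higher and 2 lower in MTAC-P. ATP5F1E, the small epsilon subunit of the central stalk, had 12.35 and 12.19 in MTAC-P, against 12.76 and 12.62 in PC9. The arrays were apart and the log2 difference was -0.42 (SE 0.16, limma adjusted p = 0.240). ATP5F1C, the gamma subunit that turns in the head, had 11.57 and 11.27 in MTAC-P, against 11.68 and 11.59 in PC9, a log2 difference of -0.21 that was -0.060 without MTAC-P replicate 2. The catalytic beta subunit ATP5F1B had 13.28 and 13.34 in MTAC-P, against 13.18 and 13.08 in PC9, a log2 difference of 0.18. The alpha subunit ATP5F1A had nearly equal means, with a log2 difference of 0.0074 (95% interval -0.37 to 0.38).

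Among the small membrane subunits, ATP5MK, which takes part in the pairing of ATP synthases, had 12.54 and 12.44 in MTAC-P, against 12.88 and 13.01 in PC9. The arrays were apart, the log2 difference was -0.45 (SE 0.16, limma adjusted p = 0.209), and its 3 probe sets lay between -0.67 and -0.45. ATP5MGL, a relative of ATP5MG, had the lowest p of all subunits. It had 5.20 and 5.002 in MTAC-P, against 4.54 and 4.33 in PC9, and its log2 difference was 0.66 (SE 0.17, limma adjusted p = 0.137). Both lines were near the dim value, and the gene has 1 probe set. The 4 genes of the peripheral stalk had overlapping arrays and differences from -0.20 for ATP5PO to 0.034 for ATP5PF.

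By position in the genome, 11 of the subunit genes lie on chromosome 19, and 9 of them had higher means in MTAC-P, with a median of 0.15. The 1096 tested genes of that chromosome had a median of 0.13 and 68.8% higher means. The subunits on other chromosomes had a median of 0.038. The median of the subunits on chromosome 19 was thus close to that of the chromosome's genes, which include them. Both MTAC-P arrays lay above both PC9 arrays for 54.5% of these subunits and 38.1% of the chromosome's genes, and below for 0% and 12.7%. For the subunits on other chromosomes these shares were 41.5% and 24.6%, against 28.3% and 24.9% of all tested genes. A part of position in the differences was not tested.

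Other lists of genes that build or serve the respiratory chain also lacked a gene past the adjusted threshold. They share no gene with the 80 members, but the electron carriers include CYC1, which encodes a complex III subunit, cytochrome c1. Its log2 difference was 0.22, with the arrays apart. Mitochondrial ribosomal proteins, which translate the subunits encoded in mitochondrial DNA, had higher means in MTAC-P for 55 of 76 genes, or 72.4% against 53.8% of all tested genes, with a median of 0.13. Leaving out 1 array at a time gave medians of 0.12 to 0.15. The MTAC-P arrays lay above the PC9 arrays for 39 of them and below for 10, or 51.3% and 13.2%, against 28.3% and 24.9% of all tested genes. MRPL24 had 11.76 and 11.91 in MTAC-P, against 11.27 and 11.04 in PC9, a log2 difference of 0.68 (SE 0.17). MRPL13 had 10.35 and 10.16 in MTAC-P, against 10.79 and 10.80 in PC9, a log2 difference of -0.54 (SE 0.16).

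Assembly factors of complex I were higher for 13 of 18 genes, with a median of 0.15, and ranged from -0.47 for NUBPL to 0.50 for ECSIT. Those of complexes II and III were higher for 8 of 11, with a median of 0.18, from -0.78 for LYRM7 to 0.61 for SDHAF1, and the arrays of all 11 were apart, as those of 53.2% of all tested genes were. Their median was 0.12 without PC9 replicate 2. Complex IV assembly factors were higher for 12 of 22, with a median of 0.049 and a wider range. HIGD1A, a hypoxia-inducible protein that associates with complex IV, had 7.88 and 7.35 in MTAC-P, against 8.56 and 8.83 in PC9, a log2 difference of -1.07 (SE 0.22, limma adjusted p = 0.113). COA7 had 10.10 and 9.62 in MTAC-P, against 9.32 and 8.80 in PC9, a log2 difference of 0.80 (SE 0.25). The 5 tested factors of complex V had a median of -0.11, from -0.32 for TMEM242 to 0.47 for ATPAF2. That median was -0.021 without PC9 replicate 1, -0.042 without MTAC-P replicate 1 and -0.21 without PC9 replicate 2. It was -0.0052 with the mean of all probe sets, -0.014 on the second brightest and -0.016 with no dim filter.

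Transcription regulators of respiratory genes had a median of 0.045 over 17 genes. GABPA, the DNA-binding subunit of the ETS factor GABP, had 5.58 and 4.83 in MTAC-P, against 6.43 and 6.29 in PC9. The arrays were apart, and the log2 difference was -1.16 (SE 0.26, limma adjusted p = 0.121), larger than that of any subunit. The MTAC-P values of GABPA were close to the dim value and lay far from each other, while most subunits were much brighter. NRF1 had 7.02 and 7.68 in MTAC-P, against 6.72 and 7.06 in PC9, with overlapping arrays and a log2 difference of 0.46. The 16 citric acid cycle genes had a median of 0.10, from -0.61 for DLD, shared by several dehydrogenases, to 0.76 for IDH2, the mitochondrial NADP-dependent isocitrate dehydrogenase. The 19 genes of electron carriers and ubiquinone supply had a median of 0.10, from -0.82 for GPD2, the mitochondrial glycerol phosphate dehydrogenase, to 0.71 for SQOR, whose arrays overlapped. The 18 genes of cristae and outer membrane had a median of 0.071, from -0.62 for OPA1, a fusion protein of the inner membrane, to 0.48 for TIMM23, which was near the dim value. Without PC9 replicate 2 the medians were 0.045 for the citric acid cycle, -0.012 for the electron carriers, -0.049 for the regulators, -0.018 for the complex IV assembly factors and 0.0089 for the cristae genes, so these medians depended on that array. The cristae median was -0.0059 without MTAC-P replicate 1.

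**Figure D5:**
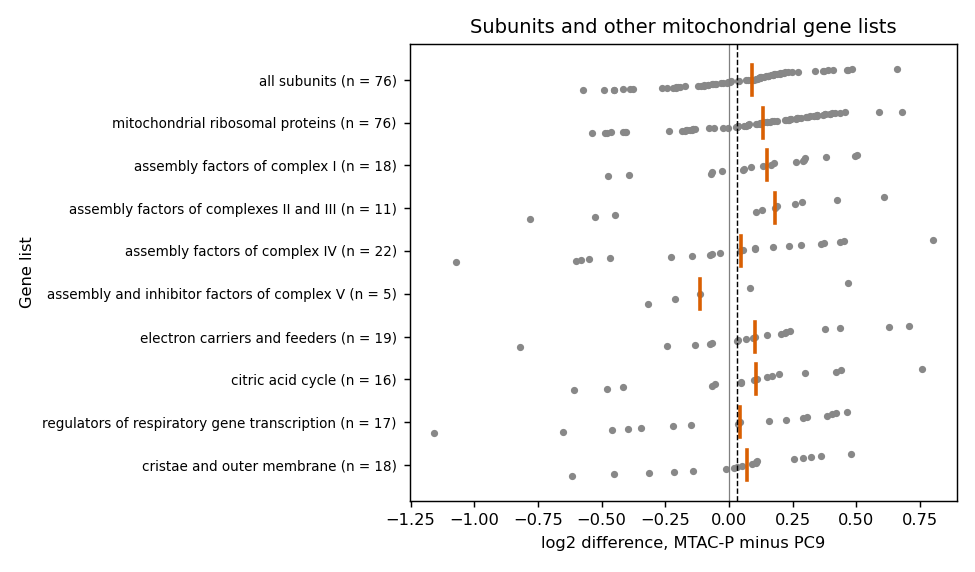
Log2 difference of MTAC-P minus PC9 (horizontal axis) for each tested gene (grey points) of the 76 subunits and of 9 other mitochondrial gene lists, with each list's median (orange bar). The dashed line is the median of all tested genes, 0.031. The subunits span a range of -0.57 to 0.66, and HIGD1A and GABPA lie at -1.07 and -1.16.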

How the data were processed

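The authors deposited log2 expression values for each probe set on each array. That scale is read from their range, and normalization and summarization are not given in the sources used here. Agilent Feature Extraction 10.7 is named, per the submitters' processing notes, although the probe sets are named as on Affymetrix arrays. Values were used without scaling, since array medians were 4.85 to 4.88. Of 49386 probe sets, 45253 with 1 symbol in GEO's platform annotation (updated by gene identifier, GRCh38.p14) gave 18239 genes. The brightest probe set stood for a gene, and 14970 genes with a mean of at least 4.14 were tested with limma 3.58.1 in R 4.3.3 (lmFit, eBayes, 2-sided, Benjamini-Hochberg over all tested genes), MTAC-P minus PC9. In 20 simulations over 14970 genes, 20.9% of genes changed by 1 and 94.3% of those changed by 2 on the log2 scale were recovered. Figures were drawn with matplotlib 3.10.9.

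The members and lists were chosen with earlier results of these data known. In each complex the 3 highest and 3 lowest tested differences and a set of core and isoform genes were named by rule, with the extremes of each other list. Other genes were named after their values were seen. Some items are not reported here. Promoter motifs were searched in RefSeq windows of GRCh38.p14, with the NRF1 and YY1 letters shortened after longer forms had been searched. Other settings tried were a block for the replicate number, 3 scalings, another dim filter and none, 2 probe set rules, limma with a variance trend or with a robust prior, the unmoderated test, 16 added on the linear scale, 3 other member sets and each array left out. Labels share replicate numbers only, so no pairing was assumed.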

Additional observations from a re-analysis of the deposited data

How the results depend on the processing

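Precision is limited by having 2 arrays of each line. Of 559 recomputed differences of 36 named subunits, 539 kept their direction and side of the threshold, and of 253 recomputed medians 237 moved by less than the spread between duplicates. The cause of the other changes was not tested. The replicate block, variance trend, robust prior and unmoderated test cannot change a difference or a median, only the side of the threshold. Both counts include these settings, so part of each was fixed in advance and they overstate stability. Leaving out an array also could not reverse the direction of a gene whose arrays were apart. With the replicate number as a block, 2079 of 14970 tested genes passed limma's adjusted threshold, but only 2 of 76 subunits. These were ATP5MGL (limma adjusted p = 0.0134) and NDUFS4 (limma adjusted p = 0.0411). That fit has 1 residual degree of freedom per gene, and the duplicate gaps of the lines correlated at r = 0.28 across genes, which does not show pairing. No subunit passed in any other setting. Against 3 genes past the threshold, a variance trend gave 77, the unmoderated test 0, the mean of all probe sets 0, and 1 each came from the 50th percentile filter, the second brightest probe set and the pseudocount. Leaving out 1 array gave 0 to 68 genes, the 68 without PC9 replicate 1, and 0 without either MTAC-P array.

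The 4 subunits higher at an unadjusted p under 0.05 became 2 with the 50th percentile filter, 8 with the mean of all probe sets, 13 with a variance trend, 8 with the pseudocount and 0 to 6 without 1 array (0 without PC9 replicate 2, 1 without MTAC-P replicate 2). The 6 lower ones became 5 with the 50th percentile filter, 7 with the mean of all probe sets, 8 with a variance trend, 7 with the replicate block and 4 with the unmoderated test. They were fewer without any 1 array. With the second brightest probe set, which fewer subunits have, 25 were higher. The median of complex I was 0.058 with the mean of all probe sets, 0.064 with the second brightest and 0.028 to 0.13 without 1 array. That of complex III was 0.35 with the second brightest. Without 1 array the median of complex V was -0.0027 to 0.10 and that of all subunits 0.022 to 0.13.

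Differences near 0 changed sign. ATP5F1A was -0.0069 with arrays centred on the median, -0.021 with quantile normalization, -0.011 on the second brightest probe set and -0.065 to 0.080 without 1 array. COX6A1 was 0.032 with the mean of all probe sets, COX7A1 0.027 with arrays centred on the 75th percentile and COX7A2 0.010 on the second brightest probe set. For UQCR11 the mean over probe sets gave 0.44 and the second brightest 0.99. Leaving out 1 array gave -0.27 to 0.054 for UQCR11, -0.45 to 0.066 for SDHD, -0.037 to 0.11 for COX5A, -0.0097 to 0.16 for COX6B1, -0.093 to 0.53 for COX6B2, -0.068 to 0.066 for COX7A1 and -0.082 to 0.016 for COX7A2. Taking members by updated symbol gave the same 80 genes, and a planned change of complex for 1 gene was not run, since that gene is not among the members.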
